A study of Mus musculus with 4 samples.

Results

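Retinoid metabolism and retinoic acid receptor genes were examined in endothelial cells (ECs) of the mouse lung after removal of one lung, or pneumonectomy (PNX). The 9 genes, out of 24063 gene symbols in the data, were Cyp26b1, Lrat, Dhrs3, Rarb, Stra6, Cyp26a1, Aldh1a1, Aldh1a2 and Aldh1a3. They were selected by symbol with earlier results of this same contrast known, so their levels and changes are given as a description without a test. Cells were taken from 8-week-old C57BL6 mice (C57BL6J in the study's methods), labelled male, with magnetic beads against CD31. The sham group had a thoracotomy without PNX, and the PNX group was sampled 7 days after surgery. Each group had 2 libraries, and each library held the pooled cells of 2 mice.

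Vitamin A (retinol) circulates bound to a carrier and enters cells through receptors such as STRA6. Inside the cell, LRAT joins it to a fatty acid for storage, while dehydrogenases oxidize it first to retinal and then, through the ALDH1A enzymes, to retinoic acid. DHRS3 reduces retinal back to retinol, and the CYP26 enzymes break retinoic acid down. Retinoic acid binds receptors of the RAR family, which pair with RXR receptors on DNA and switch on target genes. Rarb, Cyp26a1, Cyp26b1, Lrat, Dhrs3 and Stra6 are themselves known as retinoic acid-inducible genes. In the lung, retinoic acid is known for its part in alveolar formation.

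The depth and identity of the libraries bear on all values below. With each symbol represented by its most counted transcript, library totals lay between 41367438 and 50952879 counts. The smallest level such depths can show, taken as 3 counts, corresponded to between 0.0589 and 0.0725 CPM (counts relative to the library total), and this covers counting error only. Endothelial markers were abundant, with a summed level of 12 genes between 10990 and 11099 CPM in sham and between 9349 and 9389 CPM after PNX. Markers of other cells were present too. The fibroblast list (7 genes) went from between 1333 and 1346 CPM to between 4847 and 4881, and the mesothelial list (7 genes) from about 305 CPM to between 586 and 593. The epithelial list (7 genes) went from between 7154 and 7175 CPM to between 4162 and 4236, and the macrophage and monocyte list (7 genes) from between 3446 and 3456 CPM to between 4492 and 4509. In the macrophage and monocyte list Lyz2 had by far the most counts and the lowest log2 fold change (0.205). The median log2 fold change of that list was 1.215, so its sum mainly follows Lyz2. The lymphatic endothelial list (6 genes) went from between 1518 and 1524 CPM to between 1001 and 1019, through Lyve1 alone (log2 fold change -1.14), while Prox1 (0.43) and Pdpn (0.39) were higher and the median of the list was -0.00297. In all 4 libraries the data went against the label male, since none of the 44 chromosome Y genes had a count and Xist had between 31872 and 33792 normalized counts.

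**Figure D1:**
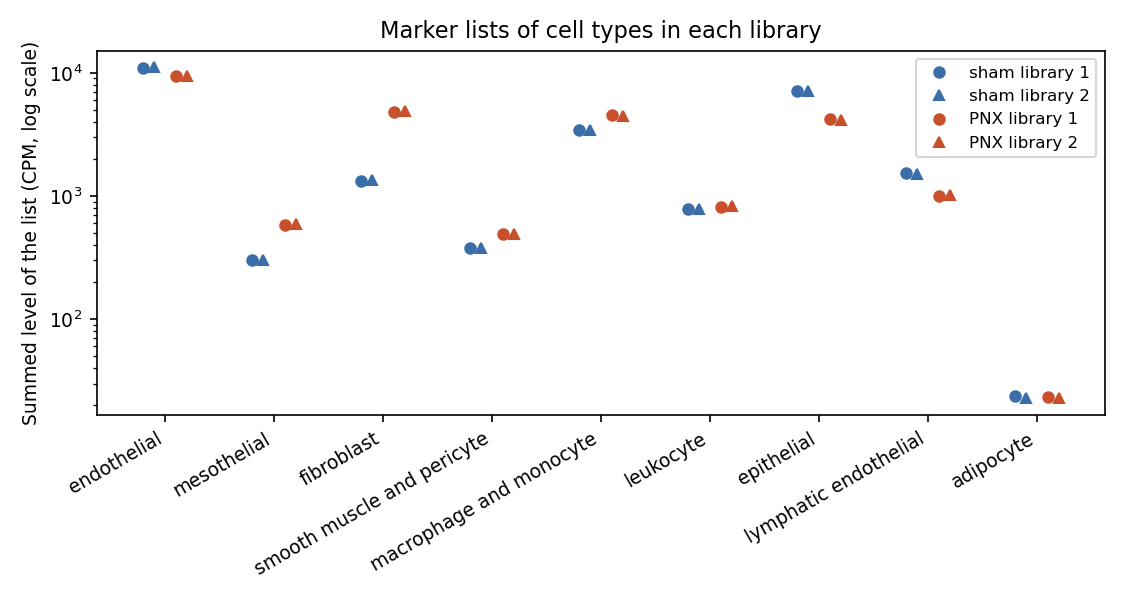
Summed levels of the marker lists of 9 cell types in each library, in CPM on a log axis, with circles and triangles for the 2 libraries of a group. The fibroblast and mesothelial points lie higher after PNX than in sham, the epithelial points and, through Lyve1, the lymphatic points lie lower, and the 12 endothelial markers drop from about 10990 to 9349 CPM.

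Sequences upstream of 4 of the genes are shown because RARs are known to bind direct repeats of a short half-site, and the best known of these repeats lies in the Rarb promoter. The half-site was searched as AGGTCA, allowing A or G as the first base and G or T as the third, on both strands, with 5 bases between the copies. RefSeq windows of 300 bases (GRCm38.p6) matched 8 of the 9 genes, all but Aldh1a3, with 14 windows in all. Of all 32851 windows, 32 (0.0974%) held such a repeat. Capitals mark the repeat in the 250 bases before an annotated start, which need not be the outer end of the gene. Sequences are written 5′ to 3′ in the direction of the gene. All 4 carry the chromosome, start and end of the stretch printed.
Rarb, chr14:16575477-16575726, minus strand: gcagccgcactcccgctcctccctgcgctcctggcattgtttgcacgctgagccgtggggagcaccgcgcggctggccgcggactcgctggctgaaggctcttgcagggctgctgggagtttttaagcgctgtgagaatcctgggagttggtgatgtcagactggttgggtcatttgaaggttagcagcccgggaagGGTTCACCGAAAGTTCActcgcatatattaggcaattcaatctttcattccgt
Cyp26a1, chr19:37697558-37697807, plus strand: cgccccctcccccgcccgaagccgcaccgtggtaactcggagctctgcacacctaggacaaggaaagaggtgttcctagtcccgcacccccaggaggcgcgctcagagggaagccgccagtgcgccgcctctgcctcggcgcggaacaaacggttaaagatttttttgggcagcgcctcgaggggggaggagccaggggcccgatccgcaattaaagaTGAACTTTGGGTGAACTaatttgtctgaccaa
Cyp26b1, chr6:84593811-84594060, minus strand: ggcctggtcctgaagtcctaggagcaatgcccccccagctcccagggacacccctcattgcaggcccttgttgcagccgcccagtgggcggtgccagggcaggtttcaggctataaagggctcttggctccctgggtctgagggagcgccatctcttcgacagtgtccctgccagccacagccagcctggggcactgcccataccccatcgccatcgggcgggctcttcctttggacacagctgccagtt
Lrat, chr3:82903975-82904224, minus strand: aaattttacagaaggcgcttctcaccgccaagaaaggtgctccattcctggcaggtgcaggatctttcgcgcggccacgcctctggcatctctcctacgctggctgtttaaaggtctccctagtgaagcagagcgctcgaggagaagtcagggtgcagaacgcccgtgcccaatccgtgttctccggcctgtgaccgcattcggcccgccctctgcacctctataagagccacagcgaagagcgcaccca

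In Rarb the repeat lay from 53 to 37 bases upstream of the window's start at 16575476, in the direction of the gene. That start lies well inside the span of Rarb given below, not at its outer end. In Cyp26a1 it lay from 32 to 16 bases upstream of the window's start at 37697808 and on the opposite strand. That start lies inside the span of Cyp26a1 given below, and so does the repeat. The window start of Cyp26b1, at 84593810, also lies inside the span given for that gene. No repeat with a spacer of 5, 2 or 1 bases was found in the windows of Cyp26b1, Lrat, Dhrs3, Stra6, Aldh1a1 or Aldh1a2. Spacers of 2 and 1 bases occurred in 0.268% and 0.222% of all windows. A match is a description of these letters alone, and repeats farther from the start were not searched. The pair with a repeat differed in expression, as given below, in that Rarb was lower and Cyp26a1 higher after PNX. A link between the repeat and expression was not tested.

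Among the enzymes that remove retinoic acid, Cyp26b1 carried almost all of the signal in sham ECs. Cyp26b1 lies on chromosome 6 from 84571414 to 84593908 (mm10, minus strand) and overlaps no exon of another gene in the GENCODE annotation. Counts of 66402 and 60147 were found in sham, against 384 and 328 after PNX. The groups lay far apart, and the libraries within each agreed closely. On the scale of normalized counts, which adjusts for library size, the level was 60734 ± 819 (SD, n = 2) in sham and 371 ± 8.39 (SD, n = 2) after PNX, 164-fold lower. The log2 fold change of PNX over sham (log2FC) from the edgeR model was -7.35 (standard error, SE, 0.030), the lowest of the 16208 genes tested. As this is bulk RNA, fewer cells of a type and less RNA per cell cannot be told apart, for this gene and for all that follow. The second annotated transcript had 66306 and 60037 counts in sham and 384 and 326 after PNX. It repeats counts of the first, so it is not a separate measurement.

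Cyp26a1, the paralog of Cyp26b1 best known as a rapidly retinoic acid-induced gene, was scarcely detected. It lies on chromosome 19 from 37697738 to 37701536. It had 5 and 6 counts in the sham libraries, with exact 95% Poisson intervals from 1.62 to 11.7 and from 2.20 to 13.1. After PNX it had 44 and 28 counts, with intervals from 32.0 to 59.1 and from 18.6 to 40.5. These intervals cover counting error only. Both PNX libraries had more counts than both sham libraries. The log2FC was 2.80 (SE 0.40), and the 4 fits that each left a library out gave between 2.54 and 3.02. The level of Cyp26a1 after PNX was small beside that of Cyp26b1 in sham ECs. Per transcript length, on the deposited TPM scale, the pair summed to 439 and 447 in sham and to 3.51 and 3.20 after PNX. The share of Cyp26a1 in that sum was 0.0201% and 0.0266% in sham and 23.4% and 18.5% after PNX. The third CYP26 gene, Cyp26c1, had between 1 and 3 counts in every library.

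**Figure D2:**
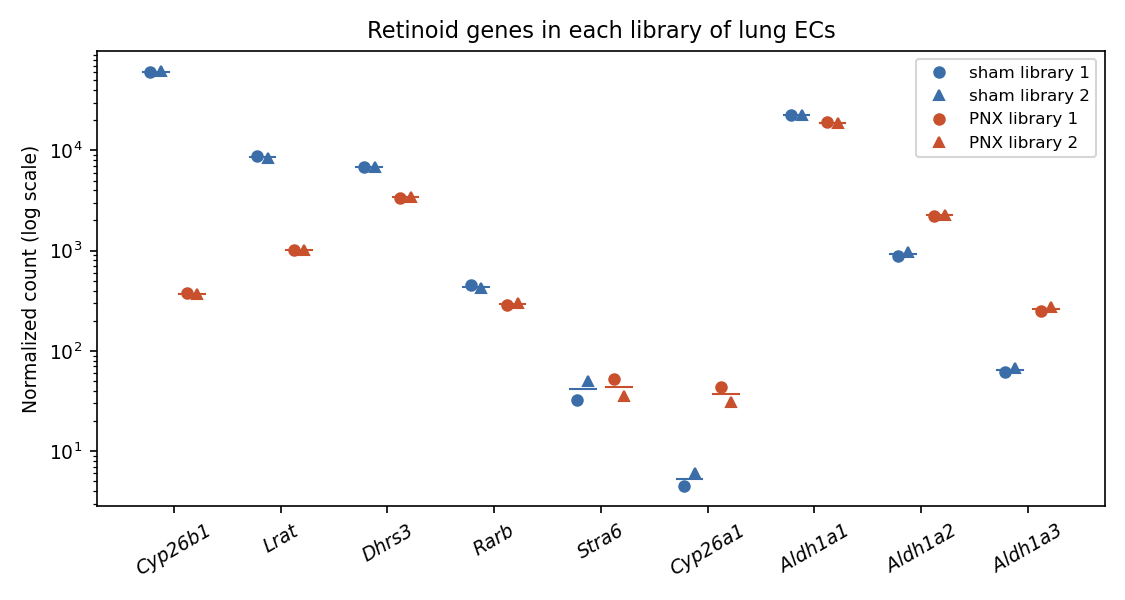
Normalized counts of the 9 retinoid genes in each of the 4 libraries, on a log axis, with circles and triangles for the 2 libraries of a group and bars for the group means. Cyp26b1 drops from 60734 to 371, Lrat and Dhrs3 are lower after PNX, and Cyp26a1, Aldh1a2 and Aldh1a3 are higher, while the groups mix only for Stra6.

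Among the enzymes that handle retinol and retinal, Lrat and Dhrs3 were lower as well. Lrat (chromosome 3, 82892582 to 82903974, mm10) had 9671 and 8253 counts in sham and 1035 and 903 after PNX. All the PNX values lay below the sham values. Its normalized count went from 8587 ± 246 (SD, n = 2) to 1012 ± 7.71 (SD, n = 2), 8.49-fold lower, with a log2FC of -3.09 (SE 0.033). Among the genes tested only Cyp26b1 and 2 genes of low counts, Usp26 and H2-Q1, had a lower log2FC than Lrat.

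Dhrs3 (chromosome 4, 144892534 to 144928209) had 7538 and 6654 counts in sham and 3438 and 3075 after PNX. The normalized count was 6806 ± 32.4 (SD, n = 2) in sham and 3402 ± 33.9 (SD, n = 2) after PNX, a difference many times the spread between libraries. The log2FC of -1.001 (SE 0.027) stood at the edge of the threshold of 1 used for calls below. It was -0.74 when libraries were scaled to the endothelial markers, -0.996 without the first sham library and -0.989 without the first PNX library. The second annotated Dhrs3 transcript had 6817 and 6062 counts in sham and 3147 and 2738 after PNX. It repeats counts of the first, so it is not a separate measurement.

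The ALDH1A enzymes, which make retinoic acid, went in different directions. Aldh1a1, on chromosome 19 from 20492583 to 20643463, is also a common enzyme of airway club cells. It had 25104 and 22372 counts in sham and 19355 and 16820 after PNX. The normalized count was 22774 ± 44.9 (SD, n = 2) against 18880 ± 197 (SD, n = 2), and the PNX libraries were below the sham libraries. Its log2FC was -0.27 (SE 0.019), but -0.01 when scaled to the endothelial markers. Of the 7 epithelial markers 5 passed an adjusted p of 0.01 downward and 1 upward, none was at 0, and the club cell gene Scgb1a1, one of that list, fell with a log2FC of -1.04 (edgeR adjusted p = 2.5e-53). The part of epithelial RNA in the Aldh1a1 value was not tested. Aldh1a7, a close paralog next to Aldh1a1 with which reads could have been shared in counting, had 1427 and 1211 counts in sham and 923 and 743 after PNX. Aldh1a7 fell with a log2FC of -0.54 (edgeR adjusted p = 2.1e-14), and the values of both paralogs are uncertain to that extent.

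Aldh1a2, on chromosome 9 from 71215789 to 71296243, is known as an enzyme of mesothelium and connective tissue. Its counts were 985 and 951 in sham and 2237 and 2058 after PNX. All PNX values were above all sham values, with normalized counts of 931 ± 54.5 (SD, n = 2) and 2246 ± 67.1 (SD, n = 2), 2.41-fold higher. The log2FC was 1.27 (SE 0.044). Aldh1a3 (chromosome 7, 66390892 to 66427477) had 68 and 67 counts in sham and 253 and 248 after PNX. Its normalized count was 65.0 ± 4.74 (SD, n = 2) and 262 ± 19.6 (SD, n = 2), 4.04-fold higher, with a log2FC of 2.01 (SE 0.14). The mesothelial and fibroblast lists moved in the same direction as both genes. All 7 mesothelial markers passed an adjusted p of 0.01 upward in edgeR's quasi-likelihood test. Of these Wt1 had a log2FC of 2.68 and Msln one of 1.97. Of the 7 fibroblast markers 5 passed upward and 1, Pdgfra, downward, and none of either list was at 0. The part of these cells in the values of Aldh1a2 and Aldh1a3 was not tested.

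Per transcript length the ALDH1A transcripts remained dominated by Aldh1a1. The 3 genes summed to 403 and 404 TPM in sham and to 352 and 349 TPM after PNX. Aldh1a1 made up 96.4% and 96.2% of the sum in sham and 90.0% and 89.4% after PNX. The Aldh1a sum was thus below the Cyp26 sum in both sham libraries, at 403 against 439 TPM in the first. After PNX it was above it in both libraries, at 352 against 3.51 TPM in the first.

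Rarb, which encodes the retinoic acid receptor beta and spans chromosome 14 from 16430839 to 17082331, was lower after PNX. Its counts were 499 and 413 in sham and 289 and 269 after PNX. The normalized count was 437 ± 22.0 (SD, n = 2) against 292 ± 11.1 (SD, n = 2), 1.50-fold lower, and the groups did not overlap. The log2FC was -0.59 (SE 0.083), and -0.33 when scaled to the endothelial markers. All 4 Rarb transcripts were lower in both PNX libraries than in both sham libraries, but they share most of their reads. On the opposite strand, exons of Top2b overlapped Rarb exons over 1793 bases. Top2b had 9742 and 9251 normalized counts in sham and 8806 and 8829 after PNX, far above Rarb, and although the library kit kept strand, it is not stated whether the counting used it, so some reads of Rarb cannot be told apart from those of Top2b.

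Stra6, the retinol receptor of the cell surface (chromosome 9, 58063793 to 58154004), did not separate the groups. It had 36 and 49 counts in sham and 53 and 32 after PNX. The sham and PNX values overlapped, at 41.3 ± 12.3 (SD, n = 2) and 43.9 ± 11.6 (SD, n = 2) normalized counts. Its log2FC of 0.12 (SE 0.24) lay between -0.19 and 0.44 in the fits that left a library out. All 4 annotated transcripts of Stra6 had identical counts, so the first by name was used.

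The order of the levels differed between the groups. On the deposited TPM scale, which accounts for transcript length, the order in sham ECs began with Cyp26b1 at 443 ± 5.61 (SD, n = 2), Aldh1a1 at 389 ± 0.449, Dhrs3 at 138 ± 0.768 and Lrat at 55.7 ± 1.64. Aldh1a2 followed at 14.3 ± 0.823 and Rarb at 4.98 ± 0.254 TPM. At the low end Aldh1a3, at 0.662 ± 0.048, and Stra6, at 0.517 ± 0.153, differed by less than the spread of Stra6, and Cyp26a1 was at 0.104 ± 0.022 TPM. After PNX the order began with Aldh1a1 at 315 ± 3.38, Dhrs3 at 67.3 ± 0.648, Aldh1a2 at 33.6 ± 0.993 and Lrat at 6.41 ± 0.051 TPM. Rarb followed at 3.25 ± 0.123. Next came Cyp26b1, at 2.65 ± 0.061, and Aldh1a3, at 2.61 ± 0.194, which differed by less than their spread. Cyp26a1 at 0.708 ± 0.162 and Stra6 at 0.537 ± 0.142 TPM overlapped between libraries. Among all 24063 genes, Cyp26b1 had rank 205 by TPM in sham and rank 12739 after PNX, while Aldh1a1 went only from rank 243 to rank 314.

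**Figure D3:**
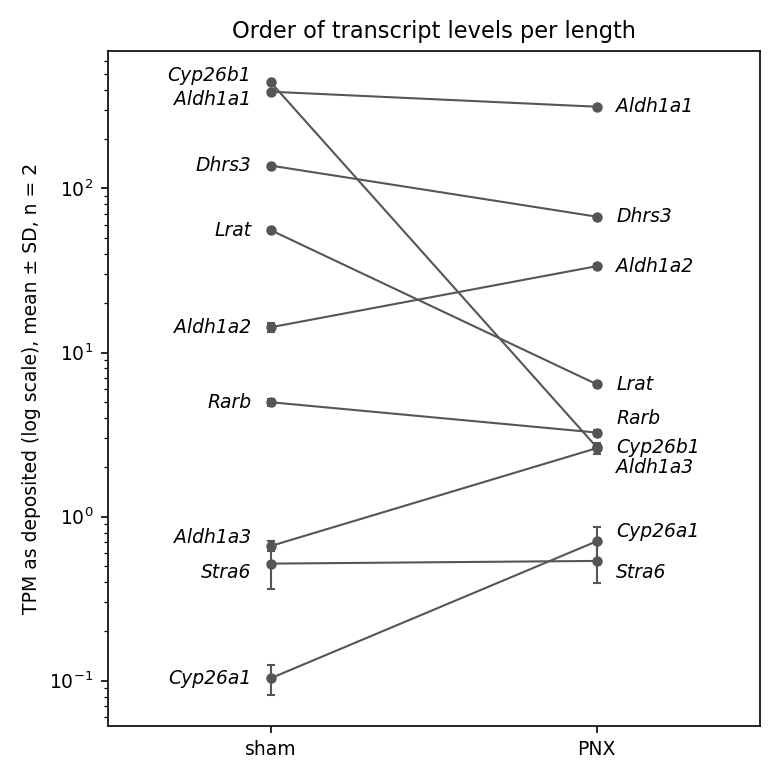
Mean TPM of the 9 retinoid genes in sham and PNX libraries on a log axis, with SD over 2 libraries as error bars and a line for each gene. The line of Cyp26b1 crosses those of 5 other genes, from 443 to 2.65 TPM, while Aldh1a1 stays near the top at 389 and 315 TPM.

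All 9 genes passed edgeR's filter on low counts. A gene was called where its log2FC was over 1 or under -1 with edgeR's adjusted p (Benjamini-Hochberg, quasi-likelihood F test) under 0.01. By this rule 3 of the 9 were called higher (Cyp26a1, Aldh1a2 and Aldh1a3) and 3 lower (Cyp26b1, Lrat and Dhrs3). Over all 16208 genes tested the same rule called 5.90% higher and 1.66% lower. Since the 9 genes were chosen with this contrast known, nothing is read from these counts. The normalized counts were above both sham libraries in 3 genes and below both in 5, and the groups overlapped in 1. How many of all genes had groups without overlap was not counted, so nothing is read from these numbers either. At an adjusted p under 0.01 and any fold change, 29.3% of all genes tested were higher and 27.8% lower. Scaling to the endothelial markers moved all log2FC values up by about 0.26, the shift of the median of all genes. It gave 1323 higher and 84 lower genes in place of 957 and 269.

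**Figure D4:**
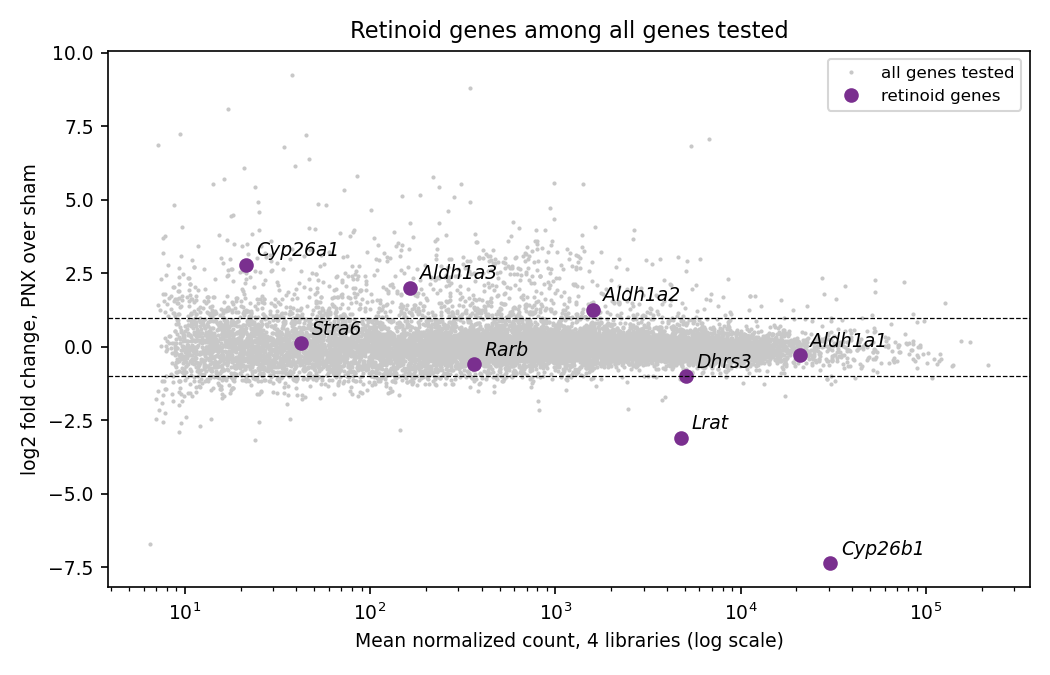
Log2 fold change (PNX over sham) against mean normalized count on a log axis for the 16208 genes tested, in grey, and the 9 retinoid genes, in purple, with dashed lines at a log2FC of 1 in either direction. Cyp26b1 is the lowest point at -7.35, Lrat lies at -3.09, and Aldh1a1 lies inside the grey band at -0.27.

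The pattern of Cyp26b1 had no close match. Among other genes averaging 100 or more normalized counts, the nearest in centred log2 values over the 4 libraries were 9530026P05Rik, Esm1 and Bpifa1, at Euclidean distances of 4.52, 5.22 and 5.23. The same 3 genes were nearest to Lrat, at distances of 0.290, 0.950 and 0.968. The long noncoding RNA 9530026P05Rik had 282 and 248 counts in sham and 34 and 34 after PNX. Esm1, an endothelial proteoglycan gene, had 1511 and 1284 against 318 and 266. Bpifa1, a secreted protein of the airway epithelium, had 4488 and 3839 against 970 and 793 counts. The 4 libraries form 2 groups, so the distance depends mainly on the size of the difference between them.

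The rest of the pathway was then examined in 62 further genes listed by role, of which 48 passed the filter. The lists were chosen with earlier results of these data known. They leave out the 9 genes, so the counts below do not describe the pathway as a whole. By the call rule above 4 were higher and 0 lower, against 5.90% and 1.66% of all genes. In edgeR's quasi-likelihood test 1 gene, Rbp2, had a log2FC under -1 at an unadjusted p under 0.05, and DESeq2's Wald test also called 0 lower. At an adjusted p under 0.01 and any fold change, 16 of the 48 were higher and 17 lower, against 29.3% and 27.8% of all genes tested. These shares are near the background. The median log2FC of the 48 genes was -0.05, against 0.00 over all genes. Scaled to the endothelial markers, 26 were higher and 9 lower. The part of other cell types in the values of these 48 genes was not tested.

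**Figure D5:**
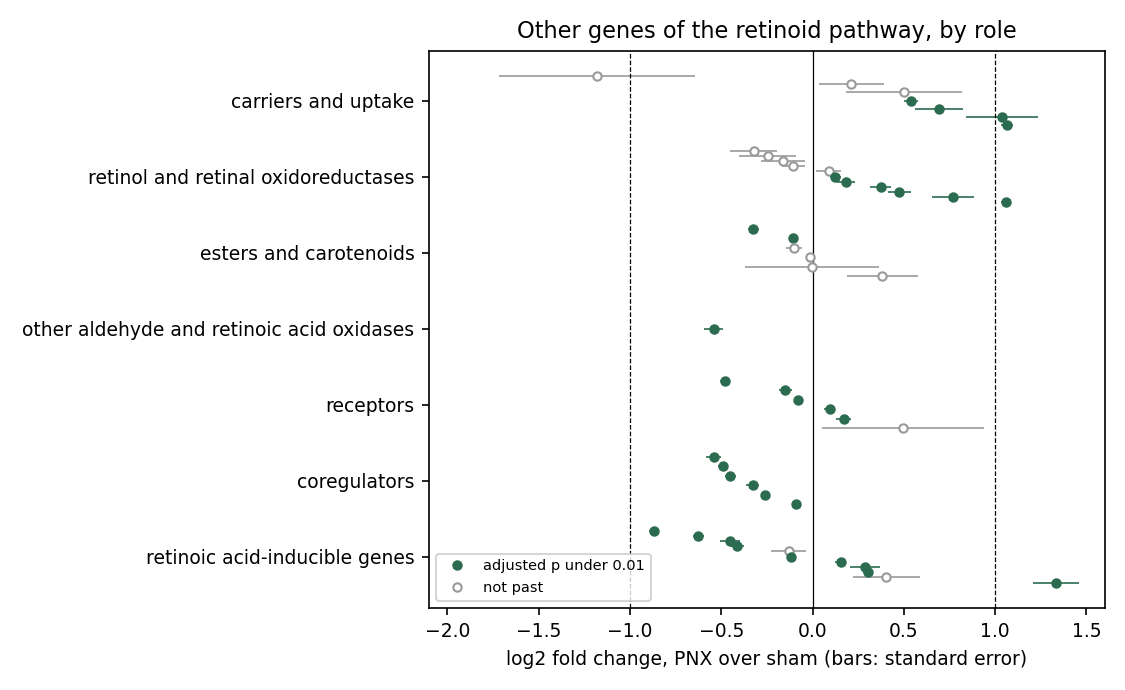
Log2 fold change (PNX over sham) of the 48 other retinoid pathway genes tested, by role, with standard errors as bars and filled points for an adjusted p under 0.01. The 4 points beyond the dashed line at 1 are Stra6l, Fabp5, Adh1 and Rarres1, all 6 coregulators lie below 0, and the receptors lie between -0.48 and 0.50.

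Among carriers and uptake proteins, 4 of 7 genes tested were higher at an adjusted p under 0.01 and none lower. Over all genes tested the shares at this threshold were 29.3% higher and 27.8% lower. The lists by role are small, and none was tested as a set. Fabp5, a fatty acid-binding protein that also carries retinoic acid, had 2195 and 1896 counts in sham and 4157 and 3702 after PNX, and rose with a log2FC of 1.06 (SE 0.032, edgeR adjusted p = 1.3e-37). The Fabp5 count is uncertain where its processed copies share reads. Stra6l, a paralog of Stra6 that also binds retinol carrier, had 51 and 39 counts in sham and 101 and 69 after PNX. Its log2FC was 1.04 (SE 0.20, edgeR adjusted p = 6.2e-06), which was under 1 without the second sham library (0.94) or the first PNX library (0.83). Rbp4, the plasma carrier of retinol, rose from 96.9 and 123 normalized counts to 182 and 172 (log2FC 0.69, edgeR adjusted p = 7.6e-06).

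Among the oxidoreductases of retinol and retinal, 6 of 11 genes tested were higher at an adjusted p under 0.01 and none lower. Their median log2FC was 0.13. The shares over all genes tested were 29.3% higher and 27.8% lower. Adh1, an alcohol dehydrogenase that oxidizes retinol, had 3509 and 3085 counts in sham and 6787 and 5833 after PNX, and rose with a log2FC of 1.06 (SE 0.027, edgeR adjusted p = 2.7e-41). Adh5 and Rdh11 had log2FC values of 0.13 and 0.18, which passed in edgeR but not in DESeq2's Wald test (adjusted p = 0.0205 and 0.0408), and Rdh11 also missed the threshold without the second sham or the first PNX library. Of the genes for esters and carotenoids, 2 of 6 tested were lower at that threshold. Lipe, a lipase that also cleaves retinyl esters, had a log2FC of -0.33, and -0.065 when scaled to the endothelial markers (edgeR adjusted p = 0.064). Ces1d, a carboxylesterase with close paralogs, had a log2FC of -0.11, which became 0.15 under that scaling. Lpl, the lipoprotein lipase, had -0.01 (edgeR adjusted p = 0.536) and 0.25 under that scaling. Aldh8a1, another retinal dehydrogenase, had between 0 and 3 counts in a library.

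Of the 6 other receptors tested, 2 were higher and 3 lower at an adjusted p under 0.01 in edgeR. The edgeR shares over all genes were 29.3% and 27.8%. Of these 5 receptors only Rarg also passed in DESeq2's Wald test. Rarg fell from 6038 and 6161 normalized counts in sham to 4331 and 4419 after PNX, a log2FC of -0.48 (SE 0.026, edgeR adjusted p = 1.6e-24). Rara went from 3041 and 3139 to 3303 and 3286, a log2FC of 0.09 (edgeR adjusted p = 0.0071), which missed the threshold in DESeq2 (adjusted p = 0.097) and in 3 of the 4 fits that left a library out. The partner receptors Rxra and Rxrb had log2FC values of -0.08 and -0.15, both of which changed sign when scaled to the endothelial markers, to 0.18 and 0.11. In DESeq2 their adjusted p was 0.054 and 0.012, and Rxra missed the threshold in all 4 fits that left a library out. Ppard, a nuclear receptor for fatty acids, had a log2FC of 0.17, but 0.092 without the first sham library (edgeR adjusted p = 0.088). Rxrg had between 7 and 13 counts in a library (log2FC 0.50, edgeR adjusted p = 0.331).

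All 6 coregulators tested were lower at an adjusted p under 0.01, against 27.8% of all genes tested. Their median log2FC was -0.39, against 0.00 over all genes. The size of the difference depended on the scaling, and the sign was not kept by every member. The coactivator Ncoa3 had a log2FC of -0.49, and -0.23 when scaled to the endothelial markers. The corepressor Ncor1 had -0.26, and -0.00065 under that scaling.

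Genes listed as retinoic acid-inducible outside the 9 went both ways, with 4 higher and 5 lower of 11 tested at an adjusted p under 0.01. Of all genes tested 29.3% were higher and 27.8% lower at this threshold. Rarres1 had 111 and 94 counts in sham and 278 and 197 after PNX, and rose with a log2FC of 1.33 (SE 0.13, edgeR adjusted p = 3.6e-14). Rarres2, which encodes chemerin, rose with a log2FC of 0.31. Cd38, an ectoenzyme that consumes NAD, fell from 6631 and 6188 normalized counts to 3544 and 3482, a log2FC of -0.87 (SE 0.029, edgeR adjusted p = 1.3e-35). Tgm2, a transglutaminase, had a log2FC of -0.12, and 0.14 when scaled to the endothelial markers.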

How the data were processed

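ECs from 2 sham and 2 PNX libraries were compared. The authors deposited, per library, whole-number counts of reads on each RefSeq transcript of mm10, without normalization, together with TPM values, which adjust for transcript length and library total, and FPKM values, not used here. The submitters' processing notes name STAR, with version and counting program not given in the sources used here. Transcripts of a gene repeat each other's counts (all 4 of Stra6 are identical), so each symbol was represented by its transcript of highest total. Totals then lay between 41367438 and 50952879, which sets the precision of low counts.

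The 9 genes, the gene lists and the tests were chosen with earlier results of these data known. Counts were tested with the edgeR 4.0.16 quasi-likelihood F test in R 4.3.3, with filterByExpr, TMM and Benjamini-Hochberg adjustment over 16208 genes. The standard error is the log2 fold change divided by the root of F, and normalized counts are scaled to the mean library size. Calls needed an adjusted p under 0.01 and a log2 fold change over 1 or under -1, the thresholds of the study's methods. Genes named beyond the 9 were those called, the receptors and the 3 most abundant of each list, apart from 2 genes not reported here, and for Cyp26b1 and Lrat the 3 nearest genes. Scgb1a1, Wt1, Msln, Pdgfra, Lyz2, Xist, Top2b, Rbp2, Usp26, H2-Q1, Lyve1, Prox1 and Pdpn were named after their values were seen. Other fits used DESeq2 1.42.0, other scalings, filters, summed transcripts, a replicate block and each library left out. The steps were tested on simulated data. The study's methods describe each library as its own pool of 2 mice. Only if this holds do the p-values measure the spread between pools. A chi-square test of counts averaged 1.74 (sham pair) and 1.51 (PNX pair) over genes, so the paired libraries differed by more than sampling noise. This does not show whether they came from separate RNA.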

Additional observations from a re-analysis of the deposited data

How the results depend on the processing

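The directions of the 9 retinoid genes other than Stra6 and Aldh1a1 held under every alternative in which they were tested, Aldh1a1 was at -0.01 with endothelial scaling, and the filter of a mean of 50 counts left 7 of the 9. Without a fold threshold the other pathway genes higher and lower came to 16 and 17. Scaling to the 12 endothelial markers gave 84 genes lower over all genes, and of the other pathway genes 26 higher and 9 lower at an adjusted p under 0.01. Among the genes named it changed the sign of Lpl (0.25), Ces1d (0.15), Rxra (0.18), Rxrb (0.11) and Tgm2 (0.14), as log2 fold changes; the scaling itself shifts all genes by the same amount. The filter of a mean of 50 counts, which tests fewer genes, gave 160 genes lower. Dhrs3 was short of the fold threshold in 5 alternatives, which are library size alone, endothelial scaling, the filter of 50 counts and the fits without the first sham or the first PNX library. With the replicate number as a block (replicate block), 957 genes were higher and 272 lower, and no call among the named genes changed. The numbers are shared by libraries of different mice, whose deviations had a correlation of 0.03. With 2 libraries per group and few counts, changes of Stra6 and Cyp26a1 are limited by depth.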
